A study of Mus musculus with 6 samples.

Results

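The genes described here are the 67 entries, of 23367 in the deposited expression table, whose symbol is Rab followed by a digit. Of these, 58 encode Rab GTPases and 9 encode partner proteins whose symbols begin in the same way (Rab3gap1, Rab3gap2, Rab3ip, Rab3il1 and Rab11fip1 to Rab11fip5). This rule reads the symbol alone and no measured value. Every member was followed in all 6 libraries, under TMM scaling and under scaling by library size alone.

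Rab proteins are small GTPases that mark the surfaces of membrane compartments. In the GTP-bound form each one sits on its own membranes and recruits effectors such as motors, tethers and lipid kinases, guanine nucleotide exchange factors (GEFs) switch it on, and GTPase-activating proteins (GAPs), most of them with a TBC domain, switch it off. In skeletal muscle the best known Rab pathway is the delivery of the glucose transporter GLUT4 to the plasma membrane, in which the GAPs Tbc1d1 and Tbc1d4 act on Rab8a, Rab10, Rab13 and Rab14.

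RNA came from the gastrocnemius, a fast muscle of the calf, of wild type FVB mice at 5 stages: embryonic day 18.5 (E18.5), postnatal days 2, 14 and 28 (PN2, PN14 and PN28) and adult at 22 weeks. The E18.5 library pooled 21 mice of both sexes and the PN2 library pooled 6 males, whereas PN14 had 2 libraries of 1 male each and PN28 and the adult had 1 library of 1 male each. Only PN14 was replicated, so every test below carries the spread between the PN14 libraries over to the other stages, and that spread may be partly technical. In addition, each library was run on a lane of its own, and E18.5 alone included females. E18.5 and PN2 were pools, whereas each later library came from 1 mouse. Stage and lane cannot be told apart where a stage has 1 library. Stage and pooling cannot be told apart from PN2 to PN14, nor from E18.5 or PN2 to the adult.

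The libraries held between 125402932 and 157868359 counts on genes, and a count of 3 equalled 0.019 to 0.0239 CPM (counts scaled to the library total), which covers counting error only. The 6 myofibre markers (Acta1, Ckm, Ttn, Des, Ryr1 and Myh4) summed to 17614 FPKM at E18.5 and 62516 FPKM in the adult, and none of them was listed at 0. The TMM factors ran from 1.45 at E18.5 to 0.714 in the adult. From E18.5 to adult the median log2 fold change over all genes was -0.05 under TMM, and library size alone put it at -1.08, a shift of -1.03, and the log2 fold change of each Rab from E18.5 to adult moves by about that amount between scalings. The shift was smaller in the shorter intervals, at -0.65 between PN2 and PN14, -0.24 between PN14 and PN28, and -0.14 between PN28 and the adult. FPKM, which scales fragments to gene length and library total, follows the library size scale. As these are bulk samples, fewer cells of a type and less RNA per cell cannot be told apart.

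The Rab GTPases were broadly present in this muscle. In every library 37 of the 58 reached 1 FPKM and 21 reached 10 FPKM, whereas 16 stayed under 1 FPKM throughout. The summed level of the 58 was 1192 FPKM at E18.5, 1219 at PN2, 908 and 1052 for the pair at PN14, 922 at PN28 and 995 in adult muscle. These sums follow the library size scale. There the adult sum lay between the PN14 replicates, and the 1 library of each other stage gives no error of its own. Divided by the TMM factors (1.45 at E18.5, 0.841 and 1.01 at PN14, 0.714 in the adult), the adult sum instead lay above those of E18.5 and both PN14 libraries.

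The make-up of the sum differed as well. The 5 most abundant GTPases of each library held 37.1% of the summed FPKM at E18.5, 35.4% at PN2, 40.6% and 38.8% for the pair at PN14, 46.2% at PN28 and 50.6% in adult muscle. Rab10 and Rab12 together held 10.6% at E18.5, 11.8% at PN2, 15.9% and 14.4% at PN14, 18.9% at PN28 and 23.5% in adult muscle. These shares do not depend on the scaling between libraries. The adult share of the pair lay above both PN14 shares by more than the gap between them, but the adult is 1 library with no error of its own. Rab10 and Rab12 ranked 1 and 2 by FPKM in the adult, so a high adult share is in part built into the choice of this pair. Counted in fragments with no length scaling, an alternative added after the data were seen, the same pair held 13.9% at E18.5 and 29.3% in the adult.

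**Figure D1:**
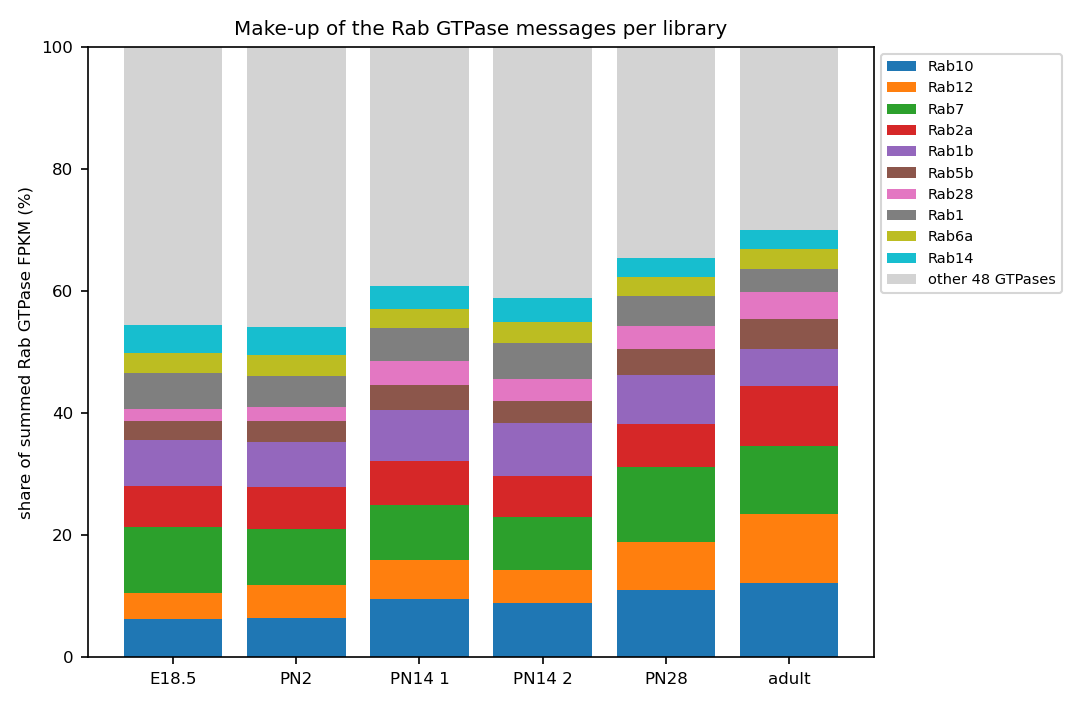
Share of the summed FPKM of the 58 Rab GTPases (vertical axis, percent) in each of the 6 libraries (horizontal axis), with 10 GTPases coloured and the other 48 in grey. Rab10 and Rab12, the lowest blocks, together grow from 10.6% at E18.5 to 23.5% in the adult.

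By FPKM the leading messages at E18.5 were Rab7, Rab1b, Rab2a, Rab10 and Rab1, and in the adult Rab10, Rab12, Rab7, Rab2a and Rab1b. Rab10 led by counts at both ages, with 9.99% of all Rab GTPase counts at E18.5 and 19.3% in the adult. The rank of Rab7 rests on its gene model. Its counts and FPKM imply an effective length of 569 bases, the shortest of the 38 GTPases with at least 1000 counts at E18.5, for which the median was 2198 bases. By counts Rab7 ranked only 13 of 58 at E18.5 and 12 in the adult.

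From E18.5 to adult, 29 of the 67 members passed the test with TMM, 12 higher and 17 lower (edgeR quasi-likelihood test, adjusted p under 0.05 and at least a 2-fold change), or 43.3% of the members beside 44.9% of all 16882 genes tested. The members called higher were 17.9% of the list against 21.4% of all genes, and those called lower were 25.4% against 23.6%. The share of Rab messages that changed was therefore close to the background, and the count alone is not a result about the Rab family. The median log2 fold change of the members was 0.01, beside -0.05 over all genes. Among the 58 GTPases, 11 were called higher and 16 lower.

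With library size alone the balance was different. Then 33 members were called, 1 higher (1.49% of members, 7.98% of all genes) and 32 lower (47.8% of members, 45.6% of all genes), with a median of -1.005 beside -1.08 over all genes. The background for both directions together was 53.6%. Of the 12 members called higher with TMM, Rab12 alone was also called higher with library size. All 17 members called lower with TMM were also called lower with library size, which added 15 further members to that side. No member was called in opposite directions. The near-uniform shift of -1.03 between scalings is too small for 2-fold calls on both sides, so this was fixed beforehand. The shift also moves every member towards the lower side. Through this shift, 21 members had a positive log2 fold change with TMM and a negative one with library size.

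**Figure D2:**
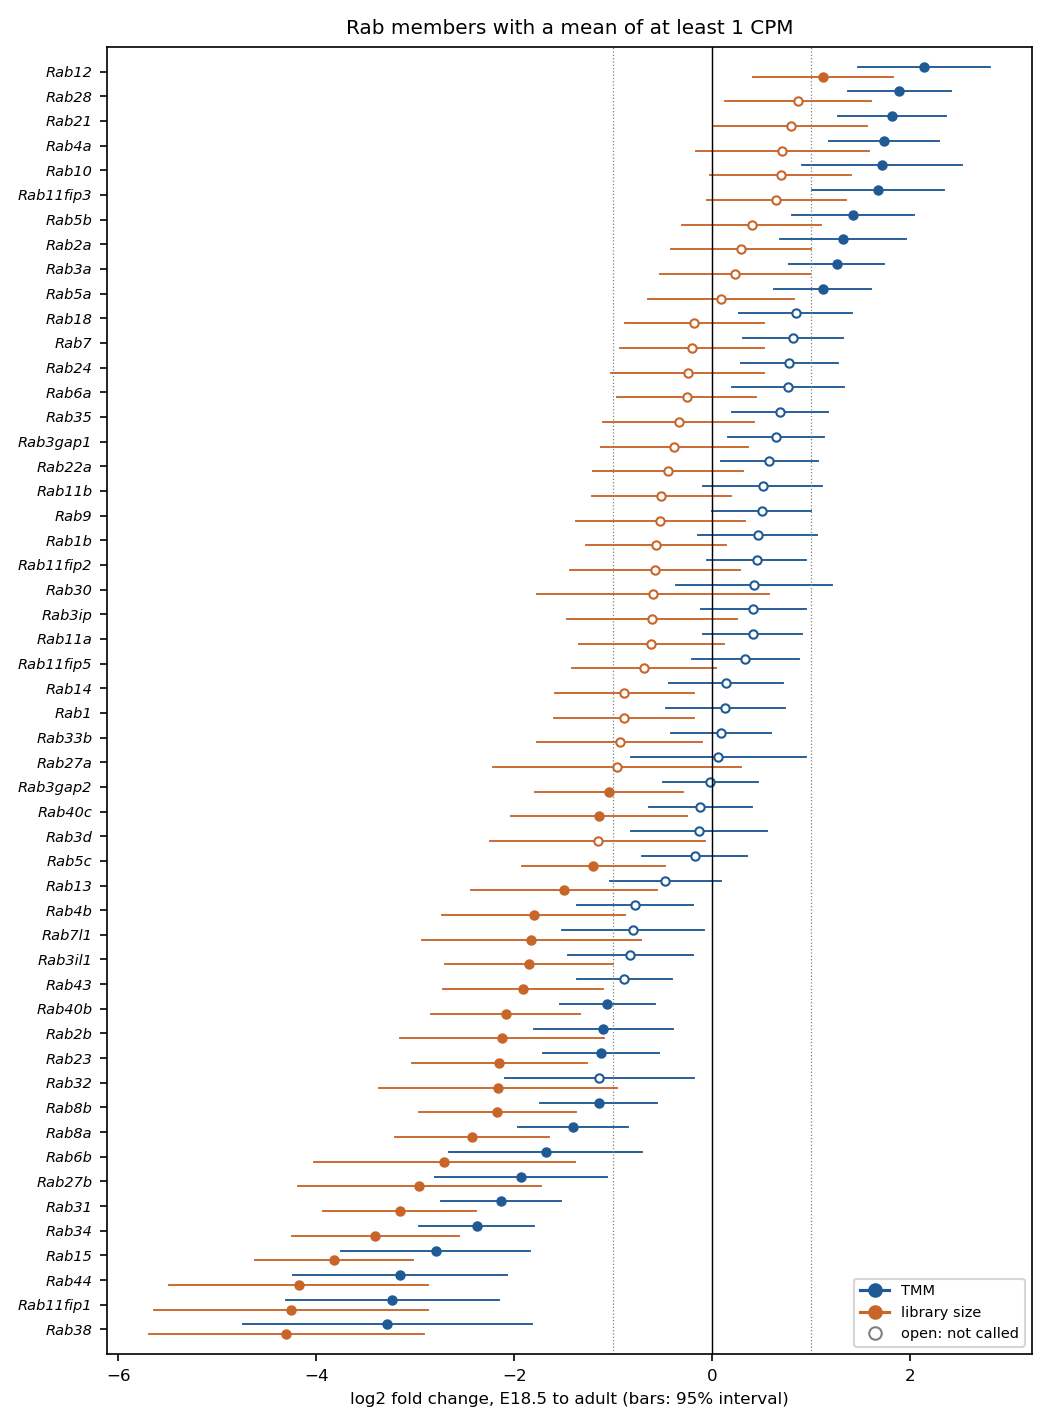
Log2 fold change from E18.5 to adult (horizontal axis) of the 52 members with a mean of at least 1 CPM, with TMM in blue and library size in orange. Bars are 95% intervals, filled points passed the test and dotted lines mark 2-fold. Library size shifts each member to the left by about 1, and Rab12 is the one member with filled points on the right under both.

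The GTPases of delivery to the plasma membrane included both the most abundant riser and several of the deep falls. Of 13 members in this class, 2 were called higher and 4 lower with TMM (21.4% and 23.6% of all genes). With library size 0 and 8 were (7.98% and 45.6% of all genes). Here and in the class descriptions below, calls are from E18.5 to adult unless another interval is named. The role classes were chosen with earlier results of these data known, so the shares called in a class are descriptive only. Rab10, which brings GLUT4 vesicles to the plasma membrane, measured 75.0 FPKM at E18.5, 78.1 at PN2, 87.6 and 94.3 at PN14, 101 at PN28 and 121 in adult muscle. No library of a later stage lay below one of an earlier stage. The log2 fold change was 1.72 ± 0.33 (standard error) with TMM (adjusted p = 0.00806) and 0.69 ± 0.36 with library size (adjusted p = 0.0935), so the call was lost under the latter.

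Its relatives on the same route took other courses. Rab8a, which also directs vesicles to the surface and into cilia, measured 33.3, 28.4, 10.7, 15.7, 9.61 and 6.18 FPKM in the order E18.5, PN2, PN14 (replicates 1 and 2), PN28 and adult, and this order is kept below. It fell under both scalings, with log2 fold changes of -1.40 with TMM (adjusted p = 0.00456) and -2.43 with library size (adjusted p = 5.53e-08). Rab8b, its close homologue, measured 11.6, 9.32, 3.33, 5.09, 2.90 and 2.57 FPKM. It also fell under both scalings, at -1.14 with TMM (adjusted p = 0.0105).

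Rab13, known from tight junctions and from GLUT4 delivery in muscle cells, measured 19.0, 18.2, 8.27, 10.5, 6.91 and 6.73 FPKM. Its TMM values stayed between 8.97 and 13.3 CPM, with no call from E18.5 to adult (log2 fold change -0.47, 95% interval -1.03 to 0.09), whereas library size gave a fall at -1.50 (adjusted p = 0.00531). Rab14, the fourth GLUT4-linked member, is described with the stable genes below. Thus, of the 4 Rab proteins tied to GLUT4 traffic, the Rab10 message was called higher with TMM only, that of Rab8a lower under both scalings, that of Rab13 lower with library size only and that of Rab14 under neither.

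Rab3a, the synaptic vesicle member that also serves exocytosis elsewhere, had its highest values at PN14. It measured 20.1 FPKM at E18.5, 22.7 at PN2, 38.4 and 46.0 at PN14, 32.4 at PN28 and 23.7 in adult muscle. With TMM the PN14 libraries lay close together, at 63.7 and 63.8 CPM, against 21.8 at PN2 and 46.3 in the adult. The rise from PN2 to PN14 was 1.55 ± 0.17 with TMM (adjusted p = 0.00572), and with library size it was 0.90 ± 0.33, which is under 2-fold. The sum of 9 motor nerve and Schwann cell markers was 53.4, 358, 216, 857, 181 and 156 FPKM in the same libraries, and the part of these cells in the Rab3a values was not tested. Neuronal Snap25 was listed at 0 in 2 libraries and was at most 0.05 FPKM elsewhere.

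The secretory granule members Rab27b and Rab44 were scarce and fell. Rab27b measured 0.92, 0.92, 0.13, 0.14, 0.26 and 0.12 FPKM, with the drop falling between PN2 and PN14 (log2 fold change -2.08 ± 0.30, adjusted p = 0.00764). Rab44, an atypically large Rab found in mast cells and other leukocytes, measured 1.41, 0.80, 0.34, 0.28, 0.22 and 0.08 FPKM, and its log2 fold change from E18.5 to adult was -3.15 ± 0.44 (adjusted p = 0.0032). Both were also called lower with library size. Rab27a, the homologue of Rab27b, measured 0.89, 0.72, 0.76, 0.79, 0.73 and 0.46 FPKM and was called under neither scaling.

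Beside Rab44 and the Rab27 pair, the summed FPKM of 5 mast cell and lymphoid markers was 126, 49.7, 3.95, 5.05, 3.73 and 4.50. Of these markers 2 were called lower from E18.5 to adult (Cpa3, with 120 FPKM at E18.5 and 3.42 in the adult, and Kit), the other 3 were not called, and none was listed at 0. Whether these cells had a part in the falls of Rab44 and Rab27b was not tested. The remaining delivery members were low. Rab3d measured 0.95 to 2.75 FPKM, Rab37 0.14 to 0.57 and Rab3b 0.03 to 0.05, and none of the 3 was called with TMM. Rab3c had 1 count and Rab26 had 2 counts in the adult against 26 and 24 at E18.5, at or below the 3 counts taken as a floor, so no fold change is given.

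The early endosome class held the most calls on the higher side, at 5 of 9 members with TMM and 0 with library size. These 5 include Rab20, with a mean under 1 CPM, and Rab4a, whose recycling route would also allow the recycling class. Over all genes 21.4% were called higher with TMM and 7.98% with library size. The median log2 fold change of the class was 1.12 with TMM and 0.09 with library size. Rab21, which carries integrins from the surface, measured 15.5, 16.0, 21.7, 21.7, 21.9 and 26.9 FPKM, with PN14 replicates that were nearly equal (21.69 ± 0.01, SD, n = 2). Its log2 fold change from E18.5 to adult was 1.82 ± 0.22 with TMM (adjusted p = 0.00221) and 0.79 ± 0.39 with library size (adjusted p = 0.0749).

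Rab4a, of the fast recycling route, measured 8.47, 9.58, 12.9, 12.9, 11.4 and 13.9 FPKM, with a log2 fold change of 1.73 ± 0.23 with TMM (adjusted p = 0.00258) and 0.71 ± 0.45 with library size (adjusted p = 0.164). The highest and the lowest library lay less than 2-fold apart in FPKM. Rab20, linked to phagosomes, measured 0.63, 0.82, 0.64, 0.61, 0.61 and 1.58 FPKM. Only the adult library stood apart, and its call (2.36 ± 0.48, adjusted p = 0.0101 with TMM) rests on 151 counts there against 66 at E18.5.

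The Rab5 proteins, which define the early endosome, differed among themselves. Rab5b measured 36.6, 41.1, 37.0, 38.8, 39.8 and 48.3 FPKM and Rab5a 22.4, 28.3, 20.99, 24.1, 20.0 and 23.8 FPKM. Both were called higher with TMM, at 1.43 ± 0.25 (adjusted p = 0.00611) and 1.12 ± 0.20 (adjusted p = 0.00618), and both were nearly flat with library size, at 0.40 and 0.09. Rab5c ran the other way, at 58.0, 56.7, 32.6, 44.5, 30.6 and 25.2 FPKM, which was level with TMM (log2 fold change -0.18, 95% interval -0.71 to 0.35) and fell with library size, at -1.20 (adjusted p = 0.00348).

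Rab31, which works between the trans-Golgi network and endosomes, was the only early endosome member called lower with TMM. It measured 19.6, 25.0, 5.78, 8.93, 4.99 and 2.20 FPKM, and all later libraries lay below both early ones. Its log2 fold change was -2.13 with TMM (adjusted p = 0.00204) and -3.16 with library size (adjusted p = 2.27e-12). Rab22a, its nearest homologue, measured 29.4, 28.4, 19.2, 21.6, 18.8 and 21.6 FPKM and was called under neither scaling. Rab4b measured 15.4, 15.1, 10.1, 14.04, 8.23 and 4.42 FPKM, below 2-fold with TMM (log2 fold change -0.78, adjusted p = 0.0353) and called lower with library size.

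**Figure D3:**
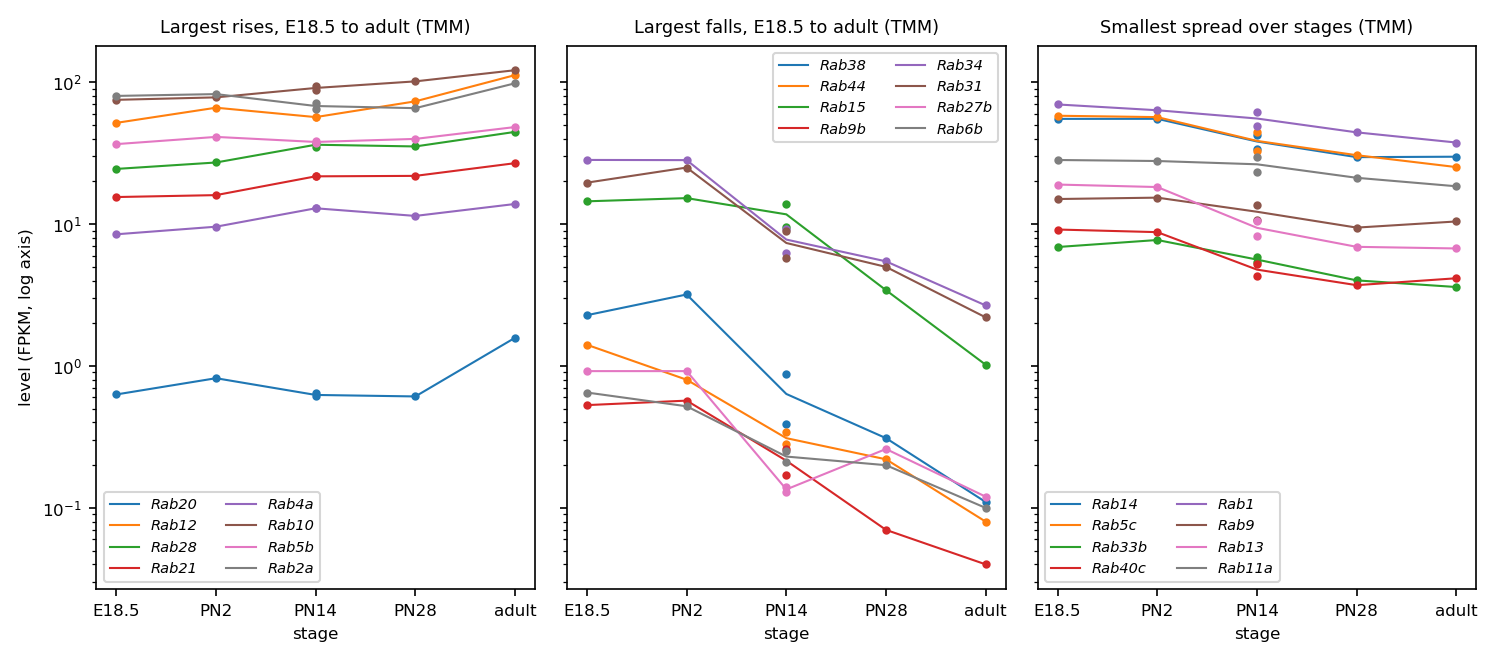
Level in FPKM (vertical axis, log scale) over the 5 stages (horizontal axis) of the 8 GTPases with the largest rises, the 8 with the largest falls and the 8 with the smallest spread under TMM. Each point is a library, and lines join stages through the mean of the 2 PN14 points. Rab15 separates from the other fallers by dropping after PN14, and the TMM-stable genes in the right panel decline in FPKM.

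In the recycling class 0 of 7 members were called higher and 2 lower with TMM (21.4% and 23.6% of all genes). Rab15, which slows recycling from endosomes and is known from neurons, fell late. It measured 14.5 FPKM at E18.5, 15.2 at PN2, 13.9 and 9.52 at PN14, 3.42 at PN28 and 1.02 in adult muscle, so the early libraries and the first PN14 library were at one level in FPKM. With TMM they were at 30.7, 32.3 and 50.9 CPM, with 29.1 CPM in the second PN14 library. From E18.5 to adult the log2 fold change was -2.79 with TMM (adjusted p = 0.00328) and -3.82 with library size (adjusted p = 8.74e-16). The PN14 replicates lay 0.80 apart on the log2 scale, and Rab15 and Rab38 were the only members past the 1 CPM floor whose replicates lay more than 0.5 apart. The median gap over the 52 members was 0.17.

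Rab11a, the general recycling endosome GTPase, measured 28.3, 27.8, 23.3, 29.5, 21.2 and 18.5 FPKM, Rab11b 15.2, 23.7, 13.1, 19.0, 11.7 and 10.7 FPKM, and Rab35, which returns cargo to the plasma membrane, 22.8, 25.7, 14.8, 18.9, 14.9 and 18.1 FPKM. None of the 3 was called under either scaling from E18.5 to adult, but with library size Rab11b was called lower from PN2 to adult (-1.15). Rab17 and Rab25, known mainly from epithelia, were at most 0.68 and 0.16 FPKM. Rab17 fell by 1.64 with TMM (adjusted p = 0.0375), and Rab25 had 0 counts at PN28, which allows up to 0.0202 CPM, and 3 in the adult.

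Among the 10 members of late endosomes, lysosomes and autophagy, 1 was called higher and 3 lower with TMM (21.4% and 23.6% of all genes). With library size 1 and 5 were (7.98% and 45.6% of all genes). Rab12, which sends transferrin receptors from recycling endosomes to lysosomes and takes part in autophagy, was the one member called higher under both scalings. It measured 51.6 FPKM at E18.5, 66.0 at PN2, 56.8 and 56.6 at PN14, 73.2 at PN28 and 112 in adult muscle. The adult library was the highest. In FPKM the level at PN2 lay above both PN14 libraries, whereas with TMM it lay below them, at 89.1 CPM against 132 and 110. The rise from E18.5 was 2.14 ± 0.27 with TMM (adjusted p = 0.00245) and 1.12 ± 0.36 with library size (adjusted p = 0.00532).

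With PN2 in place of E18.5, a comparison added after the data were seen, Rab12 was again called higher with TMM (1.79 ± 0.27, adjusted p = 0.00474) but not with library size, under which 31 members were called lower and 0 higher (44.8% and 6.37% of all genes). Under TMM the same comparison called 25 members, 11 higher and 14 lower, or 37.3% beside a background of 40.0%. The 2 comparisons share the adult library.

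The 3 members of this class called lower with TMM were Rab34, Rab38 and the scarce Rab9b. Rab34, which positions lysosomes and is needed for building cilia, measured 28.3, 28.2, 6.28, 9.27, 5.46 and 2.67 FPKM, and fell, with log2 fold changes of -2.38 with TMM (adjusted p = 0.00158) and -3.40 with library size (adjusted p = 6.28e-12). Rab38, a GTPase of melanosomes and related lysosome-like organelles, measured 2.28, 3.19, 0.39, 0.88, 0.31 and 0.11 FPKM and fell by 3.28 with TMM (adjusted p = 0.00675). In both genes the early libraries lay above all later ones. Rab32, the partner of Rab38 in melanosome formation, measured 3.09, 2.90, 0.71, 1.20, 0.79 and 0.69 FPKM, and with TMM its log2 fold change of -1.14 just missed the threshold (adjusted p = 0.0506), whereas it was called lower with library size.

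Beside Rab31 and Rab34, 5 fibroblast markers (Pdgfra, Col1a1, Col3a1, Dcn and Lum) summed to 4412, 3508, 1189, 1477, 1275 and 438 FPKM, and 4 of the 5 were called lower from E18.5 to adult. The 3 satellite cell markers summed to 59.6 FPKM at E18.5 and 6.82 in the adult, and the 4 cycling cell markers to 111 and 0.31 FPKM, with all 7 called lower. The part of these cells in the Rab falls was not tested. Macrophage markers summed to 58.5 FPKM at E18.5 and 43.2 in the adult, with 1 of 5 called in each direction. The 4 adipocyte markers went from 1.45 to 62.1 FPKM, all called higher. The 4 erythroid markers went from 8423 to 370 FPKM, all called lower. The 5 endothelial markers went from 165 to 62.5 FPKM, with 0 called under TMM. The part of these cells in the Rab rises and falls was not tested either.

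The general late endosome members varied less. Rab7, the main GTPase of late endosomes and lysosomes, measured 128, 113, 82.4, 91.5, 113 and 111 FPKM, with a log2 fold change of 0.82 with TMM (95% interval 0.31 to 1.33) and -0.21 with library size (95% interval -0.93 to 0.52). Rab9, of transport from late endosomes to the Golgi, measured 15.0, 15.4, 10.8, 13.7, 9.44 and 10.4 FPKM, and the autophagy member Rab24 measured 21.3, 21.2, 17.7, 19.3, 17.1 and 17.9 FPKM. Rab9b, at most 0.57 FPKM, was called lower under both scalings (log2 fold change -2.58 with TMM, adjusted p = 0.00803), Rab7l1 (8.13 to 2.29 FPKM from E18.5 to adult) was called lower with library size only, and Rab42 (0.50 to 0.95 FPKM) was called under neither.

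Of the 15 members of the secretory pathway and Golgi, 2 were called higher and 4 lower with TMM (21.4% and 23.6% of all genes). With library size 0 and 6 were (7.98% and 45.6% of all genes). Rab2a, of traffic between endoplasmic reticulum (ER) and Golgi, measured 80.0, 82.4, 64.9, 70.8, 65.6 and 98.1 FPKM, highest in the adult, with a log2 fold change of 1.32 ± 0.26 with TMM (adjusted p = 0.00847) and 0.30 ± 0.36 with library size (adjusted p = 0.490). Rab2b, its close homologue, measured 4.97, 5.03, 2.00, 2.95, 1.58 and 1.14 FPKM and was called lower under both. Rab1, essential for transport from ER to Golgi, measured 69.6, 63.4, 49.1, 61.7, 44.3 and 37.5 FPKM, and Rab1b 90.3, 91.7, 76.7, 90.1, 73.2 and 61.0 FPKM, and neither was called under either scaling.

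Rab6a, of transport within and out of the Golgi, measured 38.8, 41.3, 28.5, 36.1, 28.5 and 32.5 FPKM without a call. Rab6b, the form known from neurons, was at most 0.65 FPKM and fell by 1.68 with TMM (adjusted p = 0.0157). Rab18, found on lipid droplets and ER, measured between 28.7 and 36.1 FPKM in all 6 libraries. Rab33b, which takes part in autophagosome formation, measured 6.89, 7.72, 5.36, 5.88, 4.01 and 3.60 FPKM without a call from E18.5 to adult. Its homologue Rab33a had 90 counts at E18.5 and 3 in the adult. The other Golgi members were Rab43 (8.22 to 2.17 FPKM from E18.5 to adult, called lower with library size only), Rab30 (1.50 to 2.58 FPKM, no call) and 4 members under 1 FPKM in every library, of which Rab36 was called lower under both scalings, Rab39 higher with TMM only, Rab39b lower with library size only and Rab19 under neither.

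Among the 4 remaining GTPases, Rab28, a protein of cilia and photoreceptors, measured 24.5, 27.2, 35.0, 37.5, 35.2 and 44.6 FPKM. It rose by 1.89 ± 0.21 with TMM (adjusted p = 0.00189), and with library size its 0.87 ± 0.38 passed the adjusted p (0.0402) but not 2-fold. Rab23, a restraint on Hedgehog signalling, measured 6.09, 6.97, 1.99, 2.84, 1.69 and 1.37 FPKM and was called lower under both scalings. Rab40b and Rab40c carry a SOCS box that joins them to ubiquitin ligases. Rab40b measured 49.7, 44.7, 13.1, 15.3, 14.03 and 11.7 FPKM and fell by 1.06 with TMM (adjusted p = 0.00663), whereas Rab40c, at 9.15, 8.77, 4.31, 5.24, 3.71 and 4.15 FPKM, was level with TMM.

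The 9 partner proteins had 1 call in each direction with TMM (all genes 21.4% higher and 23.6% lower). Rab11fip3, which binds Rab11 and Arf6 in recycling and cell division, measured 13.9, 16.6, 21.3, 19.8, 16.8 and 21.2 FPKM and rose by 1.68 ± 0.27 with TMM (adjusted p = 0.00465), against 0.65 ± 0.36 with library size. Rab11fip1, of the same Rab11-binding family, measured 0.57, 0.55, 0.05, 0.06, 0.06 and 0.03 FPKM and fell by 3.23 with TMM (adjusted p = 0.00289). The subunits of the Rab3 GAP complex measured 9.14 to 13.6 FPKM for Rab3gap1 and 4.60 to 10.1 FPKM for Rab3gap2, and the Rab8 exchange factors Rab3ip and Rab3il1 measured 5.11 to 9.27 and 3.46 to 13.6 FPKM. With library size 4 partners were called lower (Rab3gap2, Rab3il1, Rab11fip1 and Rab11fip4). From E18.5 to adult Rab11fip2 and Rab11fip5 were called under neither scaling, but with library size Rab11fip2 was called lower from PN2 to PN14 (-1.23).

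Promoter sequence was examined because Rab10 and Rab12, which gained the largest share of the family's messages, and Rab31 and Rab34, which fell under both scalings, had separate courses. Rab12 (mm9 chromosome 17, 66843852 to 66869057) and Rab31 (chromosome 17, 66001066 to 66122092), both on the minus strand, lie 722 kb apart and were called in opposite directions. Of the 67 members, 55 matched a RefSeq promoter window by symbol, giving 73 windows. The lines below give the 250 bases before the RefSeq start (GRCm38.p6), read 5′ to 3′ on the gene strand, except that for Rab12 the last 47 were removed because they overlap an annotated exon in mm9. For Rab34 the first of 2 windows in the RefSeq table is shown. Capitals mark GGGCGG, the letters of a GC box, and CCAAT, on either strand.

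Rab10, chr12:3309970-3310219, minus strand: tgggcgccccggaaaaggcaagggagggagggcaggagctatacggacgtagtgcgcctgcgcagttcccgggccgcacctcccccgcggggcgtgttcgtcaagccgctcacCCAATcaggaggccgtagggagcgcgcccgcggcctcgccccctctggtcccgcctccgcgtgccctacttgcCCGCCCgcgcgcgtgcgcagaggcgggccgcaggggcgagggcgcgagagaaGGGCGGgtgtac
Rab12, chr17:66519718-66519920, minus strand: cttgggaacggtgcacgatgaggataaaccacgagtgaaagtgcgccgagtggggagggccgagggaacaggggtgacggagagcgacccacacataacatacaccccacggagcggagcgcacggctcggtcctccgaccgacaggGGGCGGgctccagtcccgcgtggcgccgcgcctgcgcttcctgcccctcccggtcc
Rab31, chr17:65772753-65773002, minus strand: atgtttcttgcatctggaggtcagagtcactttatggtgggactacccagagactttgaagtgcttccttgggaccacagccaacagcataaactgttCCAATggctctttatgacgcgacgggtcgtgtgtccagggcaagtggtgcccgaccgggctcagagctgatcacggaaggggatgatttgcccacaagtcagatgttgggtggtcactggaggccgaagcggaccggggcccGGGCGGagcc
Rab34, chr11:78188177-78188426, plus strand: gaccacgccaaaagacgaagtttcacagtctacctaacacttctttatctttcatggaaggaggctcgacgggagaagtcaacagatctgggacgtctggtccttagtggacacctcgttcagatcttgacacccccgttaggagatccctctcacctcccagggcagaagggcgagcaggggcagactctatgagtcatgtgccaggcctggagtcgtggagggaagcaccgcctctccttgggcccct

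The Rab10 stretch held 2 GC boxes and 1 CCAAT, that of Rab12 1 GC box, that of Rab31 1 GC box and 1 CCAAT, and the Rab34 stretch shown neither. GGGCGG was present in 68.5% of the 73 member windows and in 32.7% of all 32851 windows of the same length, and the median GC content was 60.4% in the members and 52.4% in all windows. CCAAT was in 35.6% of member windows against 33.8% of all, CAGCTG, an E-box, in 12.3% against 13.0%, CACGTG in 11.0% against 6.02% and TATAAA in 6.85% against 12.4%. Both strands were searched, and a match describes letters only. GGGCGG was in 83.3% of the 12 windows of members called higher with TMM, in 64.7% of the 17 of members called lower and in 65.9% of the 44 of members not called, so most windows of each kind held it.

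Stability was judged by its own limit, because a p that misses the threshold does not show that a gene is level. A member was taken as stable when its 5 stage values (log2 of CPM plus 0.1, PN14 as the mean of 2) spanned less than 1, that is 2-fold, among members with a mean of at least 1 CPM. With TMM 26 of 52 members were stable (50.0%, all genes 43.4%), and with library size 23 of 54 (42.6%, all genes 33.0%). The median span of the members was 1.01 with TMM and 1.14 with library size, beside 1.15 and 1.38 over all genes past the same floor. At this floor and limit the shares of stable members lay above the background under both scalings, with no test of that difference. With TMM and a span under 0.5 the shares were nearly equal (15.4%, all genes 15.5%). With no floor the order turned (47.8%, all genes 58.5%). That background holds all 23367 genes, and a gene with no counts has a span of 0, so it is stable by construction. The comparison with no floor therefore cannot show how the members stand beside expressed genes.

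Under both scalings together 15 of 52 members were stable (28.8%, all genes 17.99%). These were Rab1, Rab1b, Rab6a, Rab18 and Rab30 of the secretory pathway, Rab11a, Rab14 and Rab35 of recycling, Rab7, Rab9 and Rab24 of late endosomes and autophagy, Rab22a of early endosomes, Rab27a, and the partners Rab3gap1 and Rab3ip. Stable here means a span under 2-fold and not the absence of a change, and Rab7 lay at the limit, with a TMM span of 0.992. A further 11 were stable with TMM only, 8 with library size only and 18 with neither. The 8 stable with library size only (Rab10, Rab21, Rab28, Rab2a, Rab4a, Rab5a, Rab5b and Rab11fip3) are all among the members called higher with TMM, so whether these genes rose or stayed level is decided by the scaling.

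**Figure D4:**
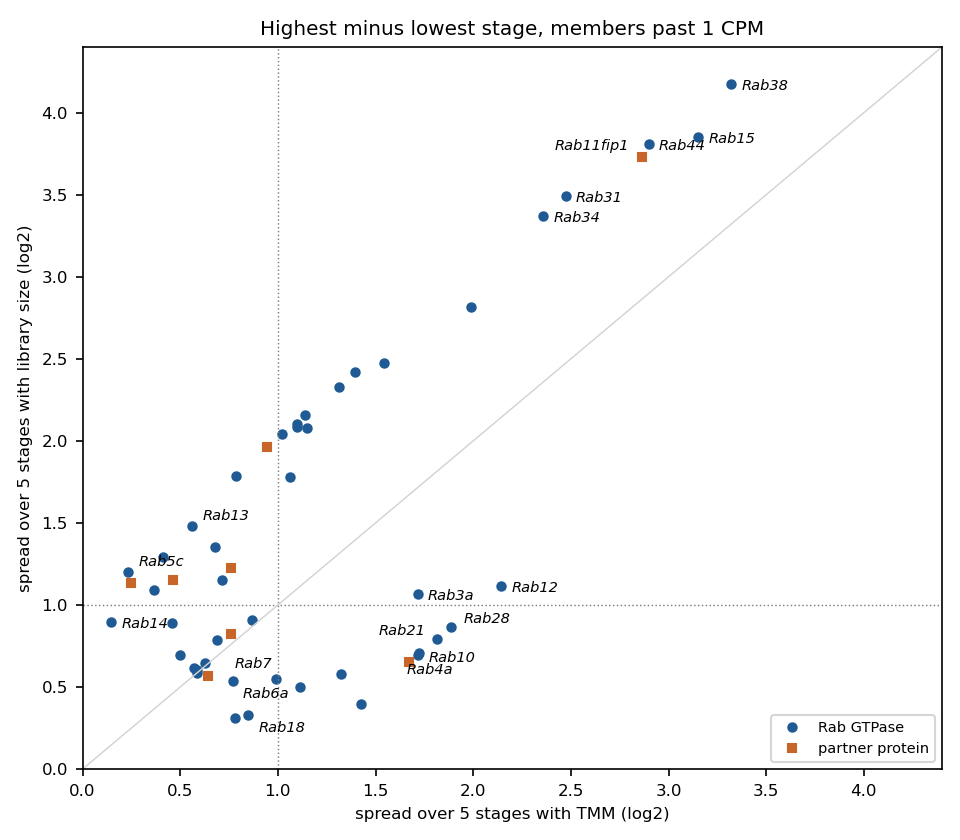
Span between the highest and the lowest stage (log2) with TMM (horizontal axis) and with library size (vertical axis) for the 52 members past the floor, with GTPases as circles and partner proteins as squares. Dotted lines mark the 2-fold limit. The lower left field holds the 15 members stable under both scalings and the lower right field the 8 stable with library size only.

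Rab14, which moves cargo between the Golgi and endosomes, had the smallest span of any GTPase with TMM, at 0.15. Its TMM values were 115 CPM at E18.5, 115 at PN2, 123 and 128 at PN14, 115 at PN28 and 127 in adult muscle, while its FPKM went from 55.1 at E18.5 to 29.8 in the adult. With library size its span was 0.90. Rab5c followed with 0.23 (TMM values between 53.7 and 67.3 CPM), then Rab33b with 0.36, Rab40c with 0.41, Rab1 with 0.46, Rab9 with 0.50, Rab13 with 0.56 and Rab11a with 0.57. With library size Rab5c, Rab33b, Rab40c and Rab13 had spans of 1.20, 1.09, 1.29 and 1.48 and so passed 2-fold. There the narrowest spans were those of Rab24, at 0.31, and Rab18, at 0.33.

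The interval of 1 comparison, which says nothing of the stages between, is another measure. The 95% interval of the change from E18.5 to adult lay wholly within 2-fold in either direction for 13 of 67 members with TMM (19.4%, all genes 17.2%) and for 5 with library size (7.46%, all genes 5.99%). The 13 were Rab1, Rab5c, Rab9, Rab11a, Rab14, Rab27a, Rab33b, Rab3d, Rab40c, Rab11fip2, Rab11fip5, Rab3gap2 and Rab3ip, and the 5 were Rab3a, Rab5a, Rab6a, Rab7 and Rab18, of which Rab3a was stable over the 5 stages under neither scaling. No member met this limit under both scalings, and the shift of -1.03 between them left little room for it. In addition, 9 members passed the adjusted p with TMM at less than 2-fold, from -0.89 for Rab43 to 0.85 for Rab18. Of these, Rab6a, Rab7, Rab18, Rab24, Rab35 and Rab3gap1 are among the members stable under both scalings. So are Rab1 and Rab14, which passed the adjusted p with library size at less than 2-fold.

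By interval, the calls fell between PN2 and PN14, which is also the step from pooled to single-mouse libraries. There 11 members were called with TMM (16.4%, all genes 23.0%), with Rab3a, Rab21, Rab4a and Rab28 higher (5.97%, all genes 11.8%) and Rab33a, Rab38, Rab11fip1, Rab34, Rab31, Rab27b and Rab40b lower (10.4%, all genes 11.2%). With library size 20 members were called lower and 0 higher (29.9%, all genes 34.5%). Without PN14 replicate 1 the members with at least a 2-fold difference numbered 6, and without replicate 2 they numbered 12, against 9 with both, so 1 replicate moved this count by up to 1.5 times. Of these, the members at least 2-fold higher numbered 4 with both replicates, 1 without replicate 1 and 5 without replicate 2.

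In the other intervals the quasi-likelihood test called 0 members. From E18.5 to PN2 this compares with 0.0296% of all genes called. There 1 of 67 members had an unadjusted p under 0.05 (Rab11b, 0.64 ± 0.25), beside 1121 of all 16882 genes. DESeq2, the exact test and library size also called 0 members there, beside 0.977%, 2.05% and 1.43% of all genes. From PN14 to PN28, where 0.0178% of all genes were called, 6 of 67 members had such an unadjusted p, beside 1420 of 16882 genes. From PN28 to adult, where 0.521% were called, 9 of 67 members had one, beside 3091 of 16882 genes. The lowest adjusted p of a member was that of Rab15 in the first of these intervals and that of Rab31 in the second (-1.05 ± 0.25, adjusted p = 0.117). Rab15 had log2 fold changes of -1.57 ± 0.33 (adjusted p = 0.417) and -1.60 ± 0.39 (adjusted p = 0.126), and was called lower in both intervals by DESeq2 (adjusted p = 0.00479 and 0.00596, backgrounds 0.800% and 4.79%), by edgeR's exact test (1.43% and 6.79% of all genes) and with library size (1.55% and 5.14%). Rab31 was called lower from PN28 to adult by the exact test (-1.05, adjusted p = 0.0241) and with no filter on low counts (4.26% of all genes).

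Over all stages at once, 26 members changed with TMM (F test of the 4 stage terms and a span of at least 2-fold, 38.8%, all genes 46.3%) and 37 with library size (55.2%, all genes 59.4%). Among the 52 members past the floor, the adult was the highest stage for 21 and the lowest for 17 with TMM, E18.5 was the highest for 13 and the lowest for 19, and PN28 was the highest for only 2.

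Ratios between related Rab messages within a library do not depend on the scaling. Rab10 over Rab8a, its close relative, was 2.26 at E18.5, 2.75 at PN2, 8.16 and 6.001 at PN14, 10.5 at PN28 and 19.6 in adult muscle. Rab4a over Rab4b was 0.549, 0.635, 1.27, 0.921, 1.39 and 3.13, so Rab4b led in FPKM early and Rab4a in the adult. Rab5b over Rab5c was 0.631, 0.725, 1.13, 0.872, 1.30 and 1.91, which changed sides in the same way. In each of these pairs the adult ratio lay above both PN14 ratios by more than the gap between them.

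Rab2a over Rab2b was 16.1, 16.4, 32.5, 24.0, 41.5 and 86.1, and Rab22a over Rab31 was 1.50, 1.14, 3.33, 2.42, 3.76 and 9.81. Rab27a over Rab27b was 0.967 and 0.783 in the early libraries and 2.81 to 5.85 in the later ones. Other pairs kept their proportion. Rab8a over Rab8b was 2.87, 3.05, 3.23, 3.09, 3.31 and 2.40, Rab1 over Rab1b was between 0.605 and 0.771, and Rab11a over Rab11b was between 1.17 and 1.85. Fragments that match both members of such a pair are shared out by RSEM's model, so the level of each member of a close pair is less certain than its sum.

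**Figure D5:**
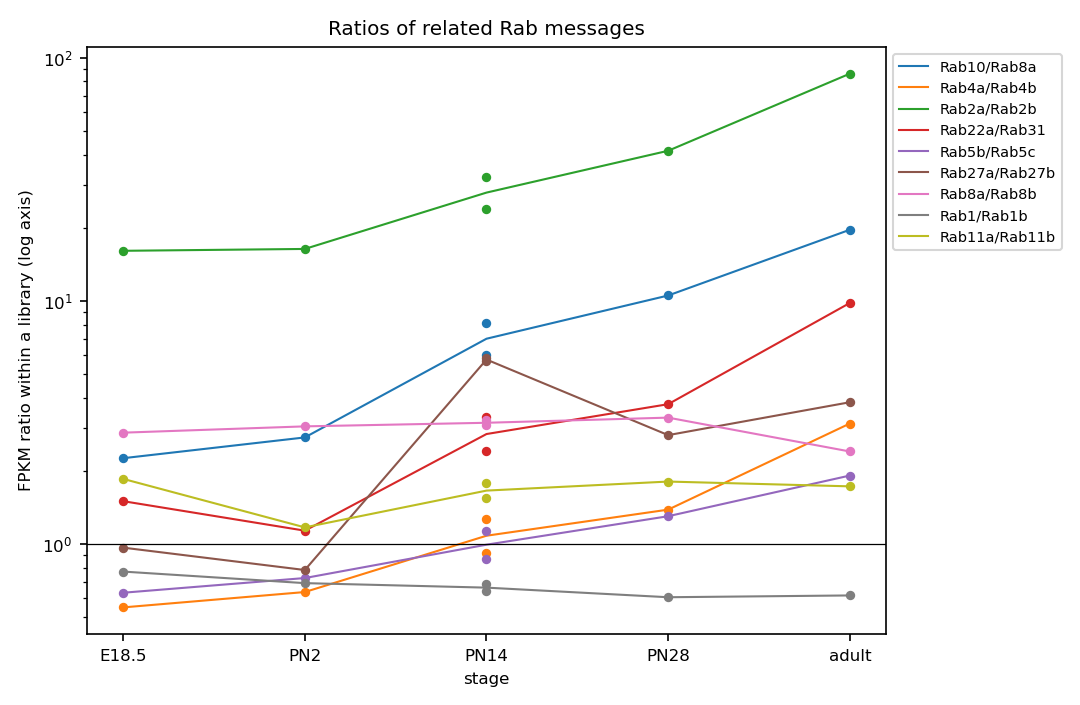
FPKM ratio of related Rab messages within each library (vertical axis, log scale) over the 5 stages (horizontal axis). Points are libraries and lines pass through the geometric mean of the 2 PN14 ratios. Rab10/Rab8a and Rab2a/Rab2b climb throughout, Rab4a/Rab4b and Rab5b/Rab5c cross 1, and Rab1/Rab1b, Rab8a/Rab8b and Rab11a/Rab11b stay within 2-fold.

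The genes that regulate Rab proteins were followed in lists that hold no Rab. Of 8 genes for the delivery and prenylation of Rab proteins, 4 were called higher and 1 lower from E18.5 to adult with TMM (21.4% and 23.6% of all genes), and 0 and 3 with library size (7.98% and 45.6%). Rabac1, a Golgi protein that binds prenylated Rabs, measured 78.0 FPKM at E18.5 and 146 in the adult (log2 fold change 1.93, adjusted p = 0.00232), and the Rab escort protein Chm measured 3.79 and 5.30 FPKM (1.51, adjusted p = 0.00392).

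Of 34 measured GEF genes, 11 were called higher and 5 lower with TMM (21.4% and 23.6% of all genes). With library size 2 and 12 were (7.98% and 45.6% of all genes). Rabgef1, an exchange factor of Rab5, measured 8.53, 10.6, 22.3, 21.2, 18.4 and 32.7 FPKM and was called higher under both scalings, at 2.96 (adjusted p = 0.00126) and 1.94. Dennd4b, of the DENN-domain family that acts on Rab10, measured 7.72, 9.28, 22.1, 17.3, 25.3 and 31.0 FPKM and was likewise called higher under both, at 3.03 (adjusted p = 0.0021) and 2.01. Dennd2a (17.3 FPKM at E18.5, 1.07 in the adult) and Hps1 (2.40 and 0.27), part of the exchange factor for Rab32 and Rab38, were called lower under both.

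Of 35 TBC-domain and related GAP genes, 5 were called higher and 4 lower with TMM (21.4% and 23.6% of all genes). With library size 1 and 14 were (7.98% and 45.6% of all genes). The 1 gene higher under both was Tbc1d1, the GAP of the GLUT4 pathway in muscle, at 6.50, 7.64, 17.1, 10.8, 16.3 and 17.6 FPKM (2.46 with TMM, adjusted p = 0.00663, and 1.43 with library size, adjusted p = 0.00041). Sgsm2, Tbc1d9 and Sgsm1 were called lower under both. Of 39 effector genes, 7 were called in each direction with TMM, and 4 higher and 20 lower with library size, beside the same shares of all genes. Rilp, the Rab7 effector that draws lysosomes along microtubules, measured 2.78, 5.91, 30.8, 33.9, 24.6 and 20.4 FPKM (3.90, adjusted p = 0.00108), Myo5c, a motor that binds several Rabs, went from 0.37 to 3.60 FPKM (4.31, adjusted p = 0.0012), and Myrip, which ties Rab27a to myosin, from 0.12 to 0.50 FPKM (3.05, adjusted p = 0.00491). Myo5b, a motor of Rab11 vesicles, went from 0.79 to 0.05 FPKM (-3.05, adjusted p = 0.00291).

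Of 14 genes of GLUT4 traffic, which include Tbc1d1 and Tbc1d4, 4 were called higher and 0 lower with TMM (21.4% and 23.6% of all genes). With library size 2 and 1 were (7.98% and 45.6% of all genes). Slc2a4, which encodes GLUT4 itself, measured 34.2, 52.0, 128, 107, 152 and 205 FPKM and was called higher under both scalings, at 3.61 (adjusted p = 0.00208) and 2.58 (adjusted p = 3.04e-10). Stxbp3a and Tbc1d4 were called with TMM only, at 1.63 (adjusted p = 0.00275) and 1.07 (adjusted p = 0.00636). The medians of the 5 lists with TMM were 0.87, 0.53, 0.14, -0.11 and 0.81 in the order given, beside -0.05 over all genes and 0.01 over the Rab members.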

How the data were processed

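RNA of 6 gastrocnemius libraries was sequenced after selection of polyadenylated RNA. Per the labels and the paper's methods, reads were aligned to mm9 with TopHat 2.0.5, and the deposited expected counts per gene were made by the authors with RSEM (its version is not given in the sources used here) on RefSeq models, with no normalization. The deposited FPKM values were made by the authors in the same step, with scaling by transcript length and by library total. No file was used besides that table, and 0 of its columns lacked a sample.

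The expected counts were rounded and fitted in edgeR 4.0.16 (R 4.3.3) with TMM, filterByExpr by stage (16882 genes and all 67 members kept) and the quasi-likelihood test, in one fit of all libraries with 5 stages. The fit had 1 residual degree of freedom, its prior added 4.86, and the biological coefficient of variation was 0.188. A filter that keeps a gene for its higher group favours genes that differ. The p-values were adjusted over all genes tested (Benjamini-Hochberg), and calls required 2-fold or more together with an adjusted p under 0.05. Intervals of 95% used the fitted standard errors. The alternatives were library size alone, DESeq2 size factors, DESeq2 1.42.0, edgeR's exact test, other filters, pseudocounts and floors, and leaving out a PN14 library. The fit was tested on simulated data.

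Members with values include the 8 largest rises, the 8 largest falls and the 8 smallest spans among GTPases, fixed genes of each compartment, the partner proteins and up to 4 called genes of each regulator list. The members, role classes and lists were chosen with earlier results of these data known. The listed symbol Rab6 is Rab6a in the table, and the GEF Ric1 was not found there. Coordinates are from GENCODE M1 (65 of 67 members matched). Promoters are from RefSeq. Python 3.11.15, pandas 2.3.3, numpy 2.4.6, scipy 1.17.1 and matplotlib 3.10.9 were used.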

Additional observations from a re-analysis of the deposited data

How the results depend on the processing

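No spike-in or cell count sets the scale between libraries. With library size alone the members called from PN2 to PN14 went from 11 to 20. The count from PN14 to PN28 was 0 and became 1 with library size, DESeq2 or the exact test (Rab15), and that from PN28 to adult was 0 and became 1 with library size or DESeq2 (Rab15) and 2 with the exact test or with no filter on low counts (Rab15 and Rab31). The cause was not tested. The stable members fell from 26 to 8 when the span had to be under 0.5 (15.4% of members, 15.5% of all genes). The E18.5 to adult count was 23 to 33 over all alternatives.

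The log2 fold change from E18.5 to adult changed sign with library size for Rab1 (-0.89), Rab11a (-0.61), Rab11fip2 (-0.57), Rab11fip5 (-0.69), Rab14 (-0.88), Rab27a (-0.96), Rab33b (-0.93), Rab3gap1 (-0.38), Rab3ip (-0.61), Rab7 (-0.21) and Rab9 (-0.52), and for Rab27a also with a floor of 1 CPM (-0.017). These 11 are among 39 members set by the naming rule. The rest of the 39 kept their direction with library size, 11 with the same call, 7 newly called and 10 no longer called. Outside the 39, the sign also changed for Rab1b, Rab6a, Rab11b, Rab18, Rab19, Rab22a, Rab24, Rab30, Rab35 and Rab42. In all, 21 of the 67 members changed sign.

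Without either PN14 replicate no residual degree of freedom is left, so only untested counts could be made. The 2-fold count was 27 from E18.5 to adult in each case (49.1%, all genes 49.6%). It was 6 to 12 from PN2 to PN14 (11.1% to 22.2%, all genes 22.7% to 31.2%, and 9 with both) and 1 to 3 from PN14 to PN28 (1.96% to 5.77%, all genes 2.08% to 7.02%, and 2 with both), and the stable count was 26 to 27. No paired analysis was possible, because each stage came from other mice and the labels link no libraries of different stages. Depth limits the members with few counts, such as Rab3c, Rab25, Rab26 and Rab33a, which had 1 to 3 counts in the adult.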
